A study of Homo sapiens with 20 samples.

Results

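Histone deacetylases 1 to 10 are the 10 genes HDAC1 to HDAC10, and they were taken by symbol from an expression table of 36076 genes in human lung cancer cells. All 10 were detected, and all 10 passed the filter on low values that left 22603 genes for testing (a mean FPKM of at least 0.1). mRNA-seq had been performed in 6 lines derived from lung cancers, which were H1792, H1299, PC9, A549, CL1-0 and CL1-5, each with a Mock library (PBS-treated) and a DAC library. DAC is decitabine, a cytosine analog that is built into DNA and depletes DNA methyltransferases, and it was given at 100 nM for 72 hours, followed by 3 days without drug. Omni-ATAC-seq, which cuts and tags open chromatin with a transposase, covered A549, H1299, PC9 and CL1-5, which gave 12 mRNA-seq and 8 Omni-ATAC-seq libraries. There was 1 library per line and treatment, so the lines served as the replicates of the treatment, and a change within a single line has no replicate check. Each line is a single cultured cancer line, so its values describe that line and not lung tumors in general. The question here is how much mRNA of each deacetylase the lines held and whether the amount and the promoter accessibility differed after DAC.

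Histone deacetylases remove acetyl groups from lysines of histones and of other proteins, and on histones this favors compact, less transcribed chromatin. Class I enzymes (HDAC1, HDAC2, HDAC3 and HDAC8) are mostly nuclear, and HDAC1, HDAC2 and HDAC3 work inside large corepressor complexes. Class IIa enzymes (HDAC4, HDAC5, HDAC7 and HDAC9) shuttle between nucleus and cytoplasm and bind MEF2 transcription factors. Of the class IIb enzymes, HDAC6 is a mainly cytoplasmic deacetylase of tubulin and other proteins and HDAC10 acts on acetylated polyamines. DNA methylation and histone deacetylation are linked in gene silencing, because proteins that bind methylated CpG recruit deacetylase complexes.

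The sequences before the starts of HDAC9 and HDAC8 are shown, because HDAC9 was the member whose level differed most between lines and HDAC8 the member with the most even difference after DAC. Each run is the 200 bases upstream of an annotated start, read 5′ to 3′ from GRCh37 (hg19), the build of the deposited peak lists, with every CG dinucleotide, the target of DNA methyltransferases, in capitals. HDAC9, on the plus strand of chromosome 7, has 4 groups of annotated starts in GENCODE v44 (lifted to GRCh37), counted here from the most upstream. The windows lie at chr7:18126372-18126571 for group 1, at chr7:18535133-18535332 for group 3 and at chr7:18548696-18548895 for group 4. Group 3 holds the canonical start and 17 of the transcripts. HDAC8 is on the minus strand of chromosome X, with its window at chrX:71792694-71792893.
HDAC9 start group 1: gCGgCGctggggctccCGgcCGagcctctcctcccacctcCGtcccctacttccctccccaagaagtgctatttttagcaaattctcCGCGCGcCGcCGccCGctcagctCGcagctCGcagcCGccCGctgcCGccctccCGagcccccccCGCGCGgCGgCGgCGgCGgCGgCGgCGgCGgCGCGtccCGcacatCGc
HDAC9 start group 3: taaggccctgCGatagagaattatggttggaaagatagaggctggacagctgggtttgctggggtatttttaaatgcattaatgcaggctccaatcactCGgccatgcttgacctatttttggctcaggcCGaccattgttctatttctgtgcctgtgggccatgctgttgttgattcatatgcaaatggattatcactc
HDAC9 start group 4: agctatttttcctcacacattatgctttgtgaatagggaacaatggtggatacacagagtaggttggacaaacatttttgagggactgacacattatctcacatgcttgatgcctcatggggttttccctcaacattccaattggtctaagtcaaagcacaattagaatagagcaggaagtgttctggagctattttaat
HDAC8: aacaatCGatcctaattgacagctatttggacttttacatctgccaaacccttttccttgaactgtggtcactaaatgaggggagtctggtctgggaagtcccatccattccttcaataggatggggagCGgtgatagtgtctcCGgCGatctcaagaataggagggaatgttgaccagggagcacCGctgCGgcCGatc

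The window of HDAC9 group 1 held 32 CG dinucleotides, a number that 4.74% of 19528 protein-coding promoter windows of the same length reached, and their median was 16. Group 3 held 3 and group 4 held 0, and the HDAC8 window held 7 with a GC content of 50%. At their canonical starts the other 8 members held between 13 and 27. The motif CTANNNNTAG, the core letters bound by MEF2 factors, read on both strands, occurred in 1.57% of all these windows and in the windows of HDAC9 group 1 and of the HDAC5 canonical start. A match of letters is a description and not evidence of binding.

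In 10 of the mRNA-seq libraries the genes held 22234485 to 25303899 reads in total. The H1299 libraries stood apart with 59735913 reads in Mock and 52634234 after DAC, and 81.9% to 85.5% of their gene counts from 1 to 20 were even numbers, against 39.2% to 41.5% elsewhere, so results that rest on H1299 are also given without it. The epithelial keratins KRT8 and KRT18 ranged from 0.118 FPKM in CL1-0 Mock to 1578 FPKM in A549 Mock. All 5 epithelial markers examined were low in CL1-0 Mock, with CDH1 the highest at 0.562 FPKM. Low values were not particular to CL1-0. In H1299 Mock, KRT19 was at 0.0150, EPCAM at 0.0555 and CDH1 at 0.0113 FPKM, although KRT8 was at 37.8 and KRT18 at 73.4. The summed level of 4 mesenchymal markers was between 11.1 and 657 FPKM over the libraries. Of 9 leukocyte and blood markers the defining PTPRC was at most 0.0759 FPKM, and the summed level of the list was between 0.772 and 8.48 FPKM. In the Omni-ATAC-seq set, the labels of CL1-5 and PC9 go against names inside the peak lists, where each carries the name of the other. By mRNA, 69 genes were on in PC9 (at least 5 FPKM) and off in CL1-5 (under 0.1 FPKM), and promoter peaks of 94.2% of them were listed for CL1-5 by label, in Mock, against 46.4% for PC9. For 28 genes with the opposite expression the shares were 50% and 96.4%. The libraries are therefore named below as "labelled CL1-5" and "labelled PC9".

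On the FPKM scale, class I enzymes made up most of the HDAC mRNA. Summed over the 10 genes in FPKM, class I made up between 66.8% (H1299 Mock) and 89.0% (CL1-5 DAC) of the total. Class IIa made up between 8.23% and 27.4%, and class IIb between 1.999% and 9.42%. HDAC1 alone gave between 36.1% and 53.8% and was the highest of the 10 in 12 of 12 libraries. HDAC10 was the lowest in 8 libraries, HDAC9 in 3 and HDAC4 in 1. FPKM divides reads by a length given to each gene, so these shares and orders depend on that length.

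**Figure D1:**
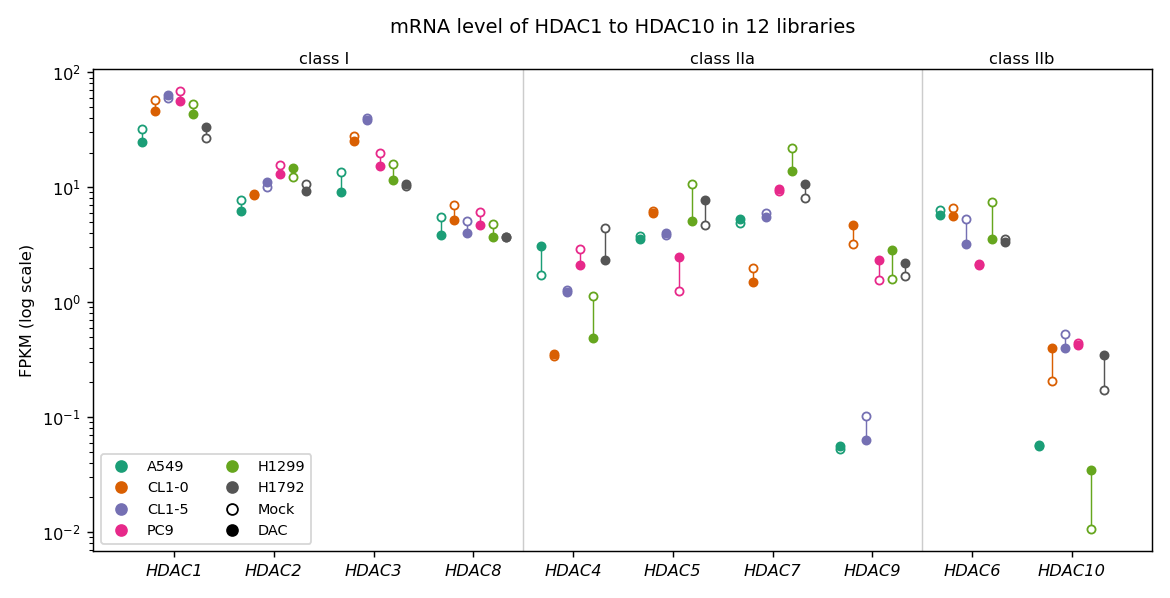
mRNA level of each gene in FPKM on a log axis, by line (color) and treatment (open, Mock; filled, DAC), 1 library per point, with a line joining the Mock and DAC libraries of a cell line. HDAC1 lies between 24.9 and 68.6 FPKM in every library, whereas HDAC9 falls into a group of libraries at 1.56 FPKM or more and a group at 0.103 FPKM or less.

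**Figure D2:**
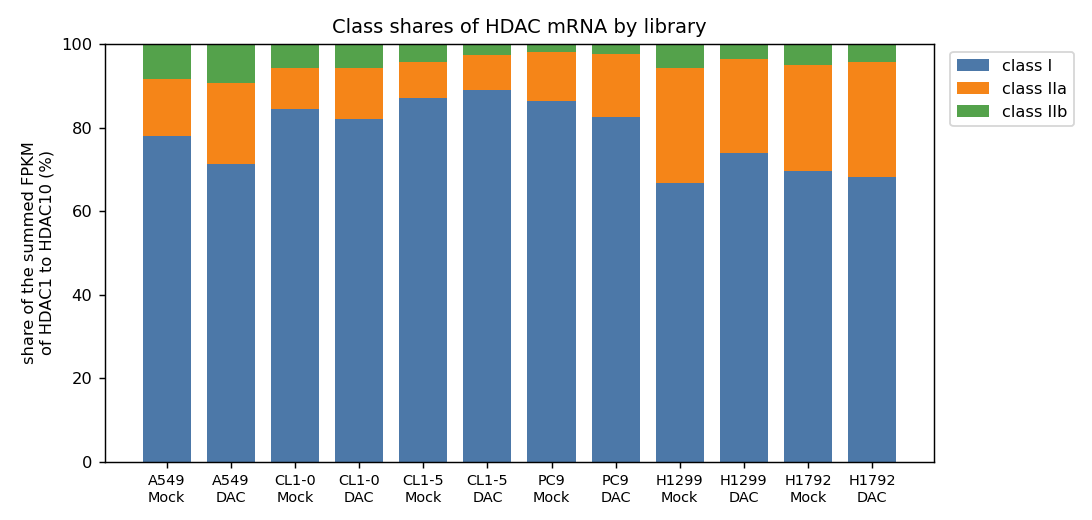
Share of the summed FPKM of the 10 genes held by each class, in percent, by library. Class I holds at least 66.8% everywhere, and the class IIa share is highest in H1299 and H1792, at 22.4% to 27.4%.

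HDAC1 and HDAC2 are close paralogs that share the SIN3, NuRD and CoREST complexes, and the ratio of their FPKM was between 2.49 and 6.61 in favor of HDAC1. Their reads lay closer together, at 2734 and 2587 in A549 Mock and at 9008 and 12038 in H1299 DAC. In GENCODE v44, HDAC1 has 3966 exon bases and HDAC2 has 15333, so the FPKM ratio depends on the length used. HDAC1 was at 24.9 to 33.6 FPKM in A549 and H1792, whose Mock to DAC ranges overlapped, at 43.0 to 57.3 in H1299 and CL1-0, and at 56.4 to 68.6 in PC9 and CL1-5. HDAC2 ranged from 6.16 FPKM in A549 DAC to 15.6 in PC9 Mock. The level of each thus varied by less than 3-fold over the lines, with A549 at the low end and PC9 at the high end of both.

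HDAC3, the catalytic subunit of the NCOR and SMRT complexes, was at 38.7 and 40.1 FPKM in CL1-5, at 25.5 and 28.04 in CL1-0 and at 9.17 to 19.8 in the other 4 lines. The ranges of CL1-5 and CL1-0 overlapped with no other line. HDAC8, which deacetylates the cohesin subunit SMC3, was the most even member, at 3.65 to 6.98 FPKM in all 12 libraries.

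Class IIa members differed more between lines than class I members. HDAC7 was lowest in CL1-0, at 1.96 FPKM in Mock and 1.51 after DAC, and highest in H1299, at 21.9 and 13.7. HDAC4 was lowest in CL1-0, at 0.339 and 0.351 FPKM, and its highest value was 4.43 in H1792 Mock. HDAC5 ranged from 1.238 FPKM in PC9 Mock to 10.8 in H1299 Mock. Between the line with the highest and the line with the lowest mean of Mock and DAC the ratio was 10.3 for HDAC7, 9.81 for HDAC4 and 4.28 for HDAC5, against 1.64 to 3.75 for the class I genes.

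HDAC9 had the widest range of the 10. In CL1-0 it was at 3.19 FPKM in Mock and 4.67 after DAC, in PC9 at 1.56 and 2.34, in H1299 at 1.60 and 2.82 and in H1792 at 1.69 and 2.18. In A549 it was at 0.0527 and 0.0564 FPKM, and in CL1-5 at 0.103 and 0.0636, values that rest on 19 to 47 reads. PC9, H1299 and H1792 overlapped with each other, CL1-0 lay above them, and A549 and CL1-5 lay far below. CL1-0 and CL1-5, both CL1 lines by name, were therefore far apart for this gene.

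HDAC6 was at 2.11 and 2.13 FPKM in PC9 and at 3.19 to 7.44 in the other lines. HDAC10 did not pass 0.529 FPKM and rested on 3 to 71 reads per library. In GENCODE v44, 55.8% of its exon bases are also exon bases of MAPK12 on the same strand, and how the authors' counting treated shared bases is not given in the sources used here, so its values are uncertain. Of the HDAC5 exon bases, 23.97% overlap G6PC3 on the opposite strand, and the counting is not stated to use strand.

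Across the 5 lines that the study compared (all except H1792), none of the 10 genes passed the adjusted threshold for a difference between DAC and Mock. These are bulk libraries, in which fewer cells with an mRNA and less of it per cell cannot be told apart. In limma on log2(FPKM + 0.1) with the cell line as a block, 27 of the 22603 genes passed at an adjusted p under 0.05, or 0.119%, and 0 of the 10 members did. At an unadjusted p under 0.05, 2 of 10 members were lower after DAC, against 4.4% of all genes, and 0 were higher, against 8.07%. limma-voom on recovered reads also called 0 members at the adjusted threshold. Its unadjusted p was under 0.05 for HDAC3 (0.037), HDAC6 (0.033) and HDAC8 (0.0090), all lower, and for HDAC9 (0.017), higher. Of all genes, 1051 were lower and 2047 higher there. With common-sum rescaling, HDAC8 alone was under 0.05, beside 536 lower genes. With quantile normalization, HDAC3, HDAC6 and HDAC8 were, all lower, beside 1668 lower genes. In limma on log2(FPKM + 0.1), the point estimate was below 0 for 8 of the 10, with a median log2 difference of -0.17, beside 0.07 for all genes tested, 41.2% of which were below 0. Among the 13233 genes with a mean of at least 1 FPKM, which 9 members reached, the median was 0.012. Of these genes, 860 were lower and 913 higher at an unadjusted p under 0.05. With FPKM rescaled to a common sum the median of all genes was 0.17 and that of the members -0.05 with 6 of 10 below 0, and with quantile normalization -0.04 and -0.25 with 9 of 10 below 0. The added 0.1 draws differences at low FPKM toward 0, which bears on HDAC10 and on HDAC9 in A549 and CL1-5.

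**Figure D3:**
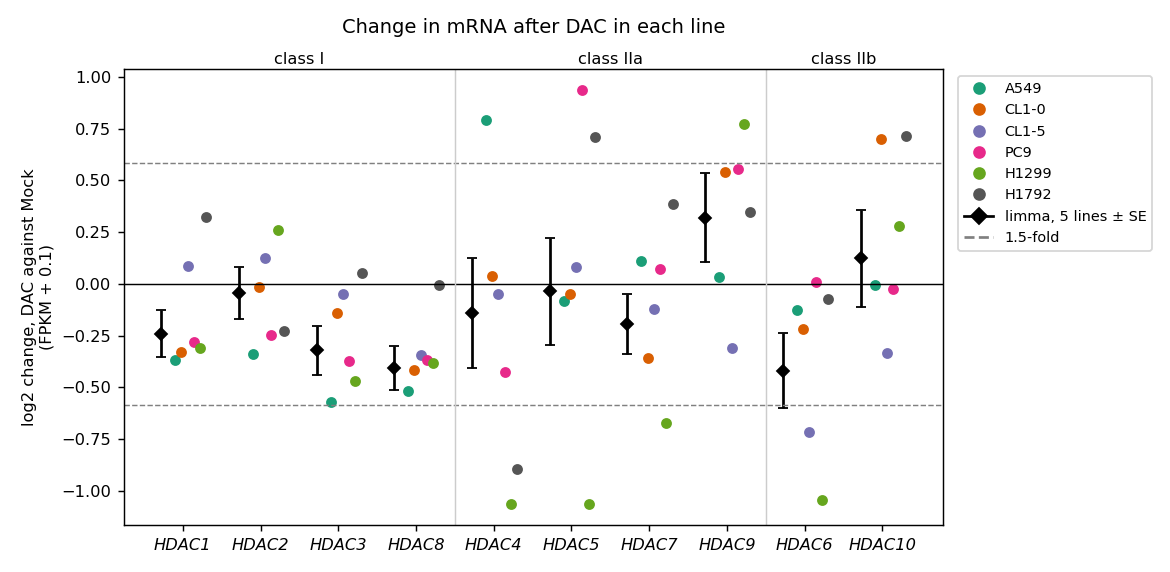
log2 difference of FPKM + 0.1 between DAC and Mock for each gene, by line (colored points, 1 library pair each), with the limma estimate over 5 lines ± SE (diamond) and 1.5-fold in either direction (dashed). The 5 fitted lines of HDAC8 lie between -0.52 and -0.35, and those of HDAC5 between -1.07 and 0.94.

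HDAC8 had the lowest unadjusted p of the 10. Its level in Mock and DAC was 5.51 and 3.82 FPKM in A549, 6.98 and 5.20 in CL1-0, 5.08 and 3.97 in CL1-5, 6.06 and 4.67 in PC9, 4.80 and 3.65 in H1299, and 3.72 and 3.70 in H1792. The DAC value was the lower one in 6 of 6 lines, which 1.8% of all genes shared, although in H1792 the 2 values did not differ beyond counting error. The mean over the 5 lines was 5.68 ± 0.87 FPKM (SD, n = 5) in Mock and 4.26 ± 0.65 in DAC, and the log2 difference was -0.41 ± 0.11 (SE), with an adjusted p of 0.256 from limma. The SD of the difference over the 5 lines was 0.07, and the interval of the difference (95%) was from -0.65 to -0.16. limma draws the SE of a gene toward that of genes of like level, so the p and this interval reflect those genes as well. With common-sum rescaling the difference was -0.29, still lower in 5 of 5 lines, and without H1299 it was -0.41.

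HDAC3 was also lower after DAC in 5 of 5 lines. The differences were largest in A549 (13.7 to 9.17 FPKM) and H1299 (16.02 to 11.5), and in CL1-5 (40.1 to 38.7) the values did not differ beyond counting error. In H1792 the DAC value was the higher, at 10.7 against 10.3 FPKM. The log2 difference was -0.32 ± 0.12 (SE), with an adjusted p of 0.349 from limma, and -0.28 without H1299. HDAC3 and HDAC8 were thus the 2 of 10 members lower in 5 of 5 lines, against 4.39% of all genes, while 0 of 10 were higher in 5 of 5 lines, against 6.76%. The pair changed with the scaling. With common-sum rescaling HDAC3 was at -0.20 and lower in 4 of 5 lines, with quantile normalization at -0.30 and lower in 4 of 5, and under both HDAC1 was lower in 5 of 5. On the deposited scale, 917 of the 13233 genes with a mean of at least 1 FPKM were lower in 5 of 5 lines and 866 were higher.

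HDAC1 was lower after DAC in A549 (32.2 to 24.9 FPKM), CL1-0 (57.3 to 45.6), PC9 (68.6 to 56.4) and H1299 (53.3 to 43.0), and higher in CL1-5 (59.8 to 63.4) and H1792 (26.9 to 33.6). The log2 difference over the 5 lines was -0.24 ± 0.12 (SE), with an adjusted p of 0.434 from limma. It was -0.12 with common-sum rescaling and -0.16 with quantile normalization, both lower in 5 of 5 lines, CL1-5 included, and -0.15 with H1792 included. For HDAC2 it was -0.04 ± 0.13 (SE), with an adjusted p of 0.900 from limma, and its interval of -0.34 to 0.25 excluded a change of 1.5-fold (0.58 on the log2 scale) in either direction. All 4 class I estimates were below 0, and 3 of 4 with common-sum rescaling, where HDAC2 was at 0.08.

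In class IIa, HDAC4 and HDAC5 differed by over 1.5-fold in opposite directions in different lines. HDAC4, a MEF2 corepressor, was at 1.74 and 3.09 FPKM in A549 (498 and 1044 reads), but at 1.12 and 0.484 in H1299 (856 and 342 reads) and at 4.43 and 2.33 in H1792 (1470 and 749 reads). The DAC library was thus the higher in A549 and the lower in H1299 and H1792. In PC9 it was at 2.88 and 2.11 FPKM, and in CL1-0 and CL1-5 the values differed by less than counting error. The log2 difference over 5 lines was -0.14 ± 0.27 (SE), with an adjusted p of 0.834 from limma, and 0.09 without H1299.

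HDAC5, a close relative of HDAC4, was at 1.238 and 2.46 FPKM in PC9 (196 and 434 reads), at 4.74 and 7.82 in H1792 (895 and 1429 reads) and at 10.8 and 5.09 in H1299 (4686 and 2048 reads). It was therefore higher after DAC in PC9 and H1792 and lower in H1299. In A549, CL1-0 and CL1-5 the log2 difference lay between -0.08 and 0.08. Over 5 lines it was -0.04 ± 0.26 (SE), with an adjusted p of 0.961 from limma. Without H1299 it was 0.22, and with H1792 included 0.09.

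HDAC7, the class IIa member best known from endothelial cells and thymocytes, was at 21.9 and 13.7 FPKM in H1299 and at 8.10 and 10.6 in H1792. H1299 was the one line past 1.5-fold, and the log2 differences of the others ran from -0.36 in CL1-0 to 0.39 in H1792. Its log2 difference over 5 lines was -0.19 ± 0.15 (SE), with an adjusted p of 0.588 from limma, and -0.08 without H1299.

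HDAC9 was the member with the most positive estimate. In the 4 lines with over 500 reads in each library, the log2 difference was 0.54 in CL1-0 (1266 and 2329 reads), 0.56 in PC9 (545 and 911), 0.77 in H1299 (1544 and 2504) and 0.35 in H1792 (705 and 879), and each counting interval left out 0. Counting intervals left out 0 in 41 of the 60 combinations of a member and a line. Leaving out 0 therefore does not by itself set HDAC9 apart, and no such share is given for all genes. In A549 (19 and 24 reads) and CL1-5 (47 and 26 reads) the HDAC9 intervals included 0, so that no difference was detectable at this depth. After DAC these 2 lines were at 0.0564 and 0.0636 FPKM, against 2.18 FPKM or more in the other 4. Over 5 lines the log2 difference was 0.32 ± 0.22 (SE), with an adjusted p of 0.551 from limma, and 0.20 without H1299. limma-voom on recovered reads gave 0.55, with an adjusted p of 0.256, and quantile normalization 0.08.

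In class IIb, HDAC6 was at 7.44 and 3.55 FPKM in H1299, at 5.29 and 3.19 in CL1-5, at 6.60 and 5.66 in CL1-0 and at 6.31 and 5.77 in A549. PC9, with 2.11 and 2.13 FPKM, and H1792, with 3.54 and 3.36, showed no difference beyond counting error. The log2 difference over 5 lines was -0.42 ± 0.18 (SE), the most negative of the 10, with an adjusted p of 0.405 from limma, and -0.26 without H1299. HDAC10 had a log2 difference of 0.12 ± 0.23 (SE), with an adjusted p of 0.837 from limma. It was past 1.5-fold in CL1-0 (0.205 and 0.396 FPKM, 24 and 58 reads) and H1792 (0.171 and 0.345 FPKM, 21 and 41 reads), and without CL1-0 the estimate over the lines was -0.02.

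Over the 60 combinations of a gene and a line, 12 differences were at least 1.5-fold, 6 in each direction. Within A549 1 of 10 members passed this limit, against 44.5% of all genes, in CL1-0 1 of 10 against 21.9%, in CL1-5 1 of 10 against 25.8% and in PC9 1 of 10 against 26.7%. In H1299 it was 5 of 10 against 25%, and in H1792 3 of 10 against 34.1%. Among the 13233 genes with a mean of at least 1 FPKM, the shares past 1.5-fold were 39.3%, 12.4%, 16.1%, 16.8%, 26.6% and 29.5% in the same order of lines. The members in H1299 were HDAC4, HDAC5, HDAC6 and HDAC7, all lower after DAC, and HDAC9, which was higher. Without H1299 the total was 7. On the deposited scale the class I genes stayed within 1.5-fold in 6 of 6 lines, with log2 differences between -0.57 and 0.32. The value of -0.57, for HDAC3 in A549, lay close to the limit. The count in A549 depended on the scaling, and 4 of 10 members passed there with quantile normalization.

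In the Omni-ATAC-seq peak lists, a peak lay over the canonical start of HDAC1, HDAC2, HDAC3, HDAC4, HDAC6, HDAC7 and HDAC8 in 8 of 8 libraries. It did so in 7 libraries for HDAC10, in 6 for HDAC5 and in 4 for HDAC9. HDAC5 lacked it in both libraries labelled CL1-5, and HDAC10 in A549 Mock. To compare lists, the strongest peak within 3000 bp of a start and listed for the gene was ranked by its fold enrichment over background among 17319 genes. HDAC4, one of the lower genes in mRNA, ranked at the 90.2 to 94.8 percentile in Mock, and HDAC6 at 83.1 to 93.9. HDAC7 ranked at 31.3 to 39.3 and HDAC10 at 28.3 to 33.6, although H1299 held 13.7 FPKM or more of HDAC7. The order of the promoters by fold enrichment was thus not that of the FPKM. This order holds for fold enrichment alone. The peak over the canonical start was 1772 to 2758 bp wide for HDAC7 and 835 to 1236 bp wide for HDAC4.

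For 9 of the 10 promoters the mean difference between DAC and Mock was smaller than its SD over the lines, and HDAC6 was the exception. The mean percentile difference ± SD over 4 lines was 2.55 ± 2.43 for HDAC6, 3.70 ± 6.26 for HDAC2, 3.74 ± 5.99 for HDAC5, 3.78 ± 13.7 for HDAC8 and 6.37 ± 20.1 for HDAC3. It was -0.63 ± 7.18 for HDAC4, -1.46 ± 3.92 for HDAC7, -2.09 ± 6.22 for HDAC10, -2.37 ± 8.56 for HDAC1 and -3.09 ± 13.03 for HDAC9. In exact two-sided sign-flip permutation tests over the 4 lines, which cannot give a p under 0.125, the lowest p was 0.25, for HDAC6. Other peak limits moved some values: with peaks within 1000 bp of the start HDAC7 went from -1.46 to -5.27, and with ranks by summed peak width 8 of the 10 turned in sign. The lowest exact permutation p over these alternatives was 0.125, the smallest possible, for HDAC7 (within 1000 bp and by position), HDAC3 (by position), and HDAC2 and HDAC4 (by summed width). The HDAC3 value rests on H1299 Mock, where the peak over its start is listed for the neighboring gene RELL2. Taking the strongest peak near the start whichever gene it is listed for gave -3.81 in place of 6.37. The HDAC8 promoter, whose mRNA was lower after DAC in each line, was higher in rank in 2 lines and lower in 2.

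At HDAC9 the peaks over its start groups, taken with a margin of 200 bp on each side, differed by line. A peak lay over the CG-rich group 1 in 8 of 8 libraries, including A549, where its fold enrichment was 4.78 (Mock) and 4.11 (DAC) and the HDAC9 mRNA was at 0.0527 and 0.0564 FPKM. In the Mock library labelled CL1-5 the group 1 peak ended at 18126423, within the margin but before the first start at 18126572. Group 2 had a peak in 0 libraries. Over group 3, with the canonical start, H1299 had a fold enrichment of 3.84 in Mock and 3.11 after DAC and CL1-5, by label, one of 4.47 and 4.17, and there was no peak in A549 or in those labelled PC9. Over group 4, which held no CG in its window, H1299 had values of 7.37 and 4.81, CL1-5 by label 6.53 and 6.27 and PC9 by label 3.94 and 4.05, with no peak in A549. No start group had a peak after DAC that it lacked in Mock. By label, the canonical start was open in CL1-5, which has hardly any HDAC9 mRNA, and had no peak in PC9, which has it. By the names inside the peak lists, the lines with that peak, PC9 and H1299, were those with over 500 reads of HDAC9.

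Within the HDAC4 gene, which spans 353 kb of chromosome 2, more peaks were listed after DAC in 4 of 4 lines. A549 had 10 such peaks in Mock and 36 after DAC, and H1299 had 6 and 20. By label, PC9 had 20 and 35 and CL1-5 had 34 and 44. The bases covered went from 5.71 to 21.0 kb, from 3.65 to 10.5 kb, from 12.2 to 24.3 kb and from 19.7 to 29.0 kb in the same order. The whole lists also grew, by a ratio of 1.33 in A549, 1.401 in H1299, 1.28 in those labelled PC9 and 1.14 in those labelled CL1-5. Of 619 protein-coding genes with a mean of at least 10 peaks, 45.1% had more peaks after DAC in 4 of 4 lines, so this count alone does not set HDAC4 apart. Its mean log2 ratio of peak numbers (with 0.5 added to each) was 1.15 ± 0.69 (SD, n = 4), against a median of 0.40 over these genes, and it exceeded that of 98.7% of them. HDAC4 was singled out after its values were seen, so no test is given. The median fold enrichment of the whole lists was lower after DAC in 4 of 4 lines, as in A549, where it went from 4.36 to 3.81. The ratio of peak numbers was not repeated with lists of equal size or a stricter peak limit. The other 9 members held at most 10 peaks in any library. HDAC4 mRNA was higher after DAC in A549 and lower in H1299, where the peak number had ratios of 3.6 and 3.33.

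**Figure D4:**
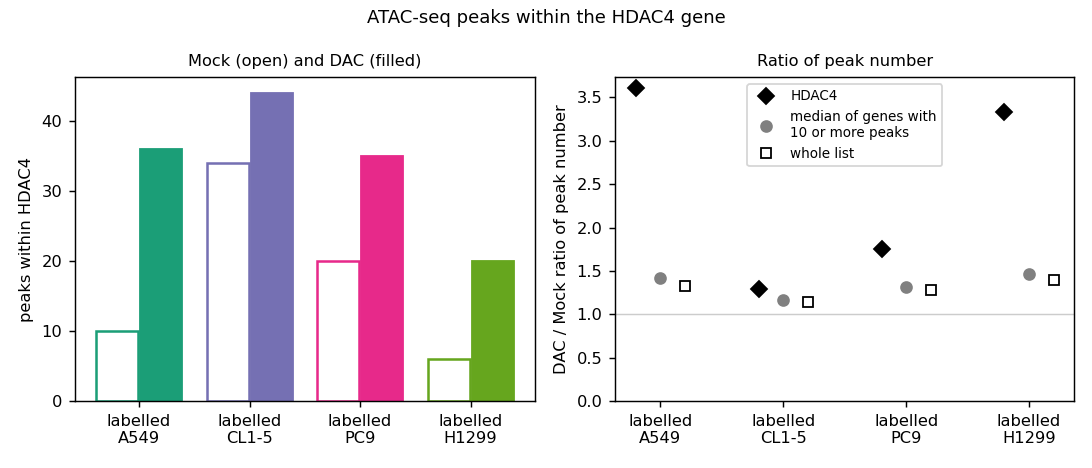
Left, number of Omni-ATAC-seq peaks within HDAC4 by line (open, Mock; filled, DAC). Right, ratio of the DAC to the Mock number for HDAC4 (diamond), for the median of 619 genes with a mean of at least 10 peaks (gray, with 0.5 added to each number) and for the whole list (square). HDAC4 lies above both in each line, with ratios from 1.29 to 3.6.

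None of the partner and relative genes passed the adjusted threshold either, and their counts at an unadjusted p under 0.05 stand beside 4.4% lower and 8.07% higher for all genes. Of 8 other deacetylases (HDAC11 and SIRT1 to SIRT7), 0 passed it, with 2 lower ones at an unadjusted p under 0.05. The lowest was SIRT3, a mitochondrial deacetylase, at a log2 difference of -0.46 and the highest SIRT7 at 0.24. Of 32 genes of the corepressor complexes 0 passed, with 2 higher and 2 lower at an unadjusted p under 0.05. The lowest was MTA1, a NuRD subunit, at -0.40, and the highest RCOR2, a CoREST subunit, at 0.81, with 3.97 ± 3.96 FPKM (SD, n = 5) in Mock and 7.16 ± 7.73 in DAC.

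Of 11 histone acetyltransferases, which act opposite to the deacetylases, 0 passed, with 1 higher and 3 lower at an unadjusted p under 0.05. KAT8, which acetylates histone H4, was lowest at -0.48 and NAA40, which acetylates histone N-termini, highest at 0.26. Of 21 class IIa partners (MEF2 factors, the kinases that send class IIa enzymes to the cytoplasm, and 14-3-3 proteins) 19 were tested, and 0 passed, with 1 higher at an unadjusted p under 0.05. The lowest was CAMK2D at -0.30. The highest was the 14-3-3 protein SFN at 2.56 ± 1.013 (SE), whose DAC value was the higher one in 3 of 5 lines. Its mean ran the other way, at 55.3 ± 85.4 FPKM (SD, n = 5) in Mock and 40.3 ± 42.3 in DAC, and its lowest library held 4 reads. Of 13 genes of tubulin acetylation and aggresomes 0 passed and 0 had an unadjusted p under 0.05, with TUBA4A, an alpha-tubulin, highest at 0.74. The medians of the 5 lists lay between -0.08 and 0.07, beside 0.07 for all genes.

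The 3 genes most like HDAC9 over the 12 libraries, by Pearson's r of log2(FPKM + 0.1) among 13363 genes with a mean of at least 1 FPKM, were MECOM (0.960), CITED2 (0.950) and CDKN2A (0.944). These are transcriptional regulators and, for CDKN2A, a cell cycle inhibitor. The 12 libraries are pairs from 6 lines, and A549 and CL1-5 were low for each of these genes as they were for HDAC9, so the likeness rests on few independent points. CDKN2A was listed at 0 in the libraries of A549 and CL1-5. Among genes named after an HDAC that are no members, HDAC11 was at 2.18 to 4.48 FPKM. The antisense RNA HDAC4-AS1 was at most 3.27 FPKM, from 43 reads or fewer, HDAC2-AS2 at most 0.214 FPKM and HDAC11-AS1 at most 2 reads.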

How the data were processed

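mRNA-seq (12 libraries) and Omni-ATAC-seq (8 libraries) were assigned to groups from their labelled line and treatment. Per the study's methods, reads were aligned to hg19 and counted per gene, and the authors deposited FPKM values normalized with DESeq2. The methods name RSEM with bowtie2, whereas the submitters' processing notes list TopHat2 2.1.1, and which one made the table was not settled. The same table holds a mean normalized signal per gene, used here, and a deposited log2 fold change, test score and p-values of the authors' own comparison, which were not used. For Omni-ATAC-seq, reads were aligned with BWA, duplicates removed, broad peaks called per library with MACS2 2.2.5 and annotated with ChIPseeker 1.20.0. The deposited peak lists hold, for every peak, a score, a fold enrichment, and its p- and q-value as −log10. The depth of these libraries is unknown here. Columns of values that belong to no sample numbered 0.

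Members and lists were chosen with earlier results of these data known. Reads were recovered from FPKM and the mean normalized signal. In each library 100% of values came out whole within 0.01. Genes were kept at a mean of 0.1 FPKM or more, and log2(FPKM + 0.1) was fitted with limma 3.58.1 in R 4.3.3 over the 10 libraries of 5 lines, with a block for the cell line, an intensity trend and Benjamini-Hochberg adjustment over all genes at 0.05. The pairing by line was checked by correlating the deviations of libraries from their treatment mean, which gave 0.731 to 0.900 for the same line and at most 0.115 for different lines. The limma p-values rest on the spread between lines, with 1 library each. That spread is drawn toward the one of genes of like intensity. Intervals of a ratio within a line are exact binomial ones at 95% (scipy 1.17.1), with H1299 reads halved, and cover counting error only. Promoter ranks were tested with exact sign-flip permutations over 4 lines. Starts come from GENCODE v44 on GRCh37 and sequences from GRCh37, read with pysam 0.24.0. All 10 members were named, with the highest and lowest gene of each list, the 3 genes most like the member of widest range, and genes with HDAC in their symbol. A gene that this rule names is not reported here. Alternatives were other pseudocounts, filters, scalings and models, H1792 included, each line left out, and other peak limits and ranks.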

Additional observations from a re-analysis of the deposited data

Results flagged for a closer look

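Of 40 sets of 6 lines or 4 libraries examined for a value far from the rest, 2 held one, and chance gives about 1 in 20. In HDAC8, the log2 difference of H1792 was -0.0054, whereas the other 5 lines lay between -0.52 and -0.35. In HDAC3, the promoter percentile difference of H1299 was 36.4, whereas the other 3 pairs lay between -6.47 and -1.87, and the H1299 Mock peak over the HDAC3 start is listed for RELL2.

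Differences past 1.5-fold went in opposite directions in different lines for 2 genes. For HDAC4 the log2 difference was 0.79 in A549, -1.06 in H1299 and -0.90 in H1792. For HDAC5 it was 0.94 in PC9, 0.71 in H1792 and -1.07 in H1299. Each value rests on 1 library per treatment, and the differences between lines were not tested.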

How the results depend on the processing

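The number of members past the adjusted threshold was 0 under each of the 15 alternatives to the limma fit. The number of genes called among all, 27, was 0 with a pseudocount of 1, 2 without a filter, 17 with quantile normalization, 53 with H1792 included, 10 with no replicate block, 6 with no trend and 179 with limma-voom, and between 0 (without A549 or CL1-5) and 23 with a line left out. It was 5 without CL1-0 and 12 without PC9. With no replicate block, no member's call differed from that of the blocked fit. Of 12 differences past 1.5-fold within a line, 7 remained with a pseudocount of 1. With common-sum rescaling 13 and with quantile normalization 14 passed, of which 11 and 10 were among the 12. The count by line also moved: with quantile normalization 4 members passed in A549 and 0 in CL1-0, and 10 of the 14 differences were lower after DAC.

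The sign of the 5-line estimate turned for 4 members. HDAC2 went to 0.079 and HDAC5 to 0.082 with common-sum rescaling, HDAC5 to 0.088 with H1792 and HDAC10 to -0.25 with quantile normalization. With a line left out HDAC2 ranged from -0.12 to 0.031 (0.0083 without PC9), HDAC4 from -0.37 to 0.089, HDAC5 from -0.28 to 0.22 and HDAC10 from -0.021 to 0.24, and the other 6 kept their sign under every alternative. The cause was not tested. HDAC10 was not tested at a mean of at least 1 FPKM, which it did not reach.

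Ranked by the summed width of promoter peaks, the mean percentile difference was 0.92 for HDAC1, -6.23 for HDAC2, 7.98 for HDAC4, -6.66 for HDAC5, 0.51 for HDAC7, -4.62 for HDAC8, 1.196 for HDAC9 and 1.95 for HDAC10, each opposite in sign to the rank by fold enrichment. By position, an alternative chosen after seeing the data, HDAC3 went to -3.81 and HDAC7 to -6.35. With a line left out it ranged from -4.87 to 0.54 for HDAC1, -3.63 to 10.6 for HDAC3, -3.30 to 2.496 for HDAC4, -2.70 to 0.30 for HDAC7, -2.51 to 8.15 for HDAC8 and -8.09 to 2.28 for HDAC9. Exchanging the labels of CL1-5 and PC9 leaves these means as they are, because both treatments exchange together.

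With 1 library per line and treatment, the spread between lines, drawn in limma toward that of genes of like level, sets what can be called. HDAC9 in A549 and CL1-5 and HDAC10 throughout rest on fewer than 100 reads, and no difference there of less than their counting intervals can be seen. Peak lists hold no depth, so a missing peak does not show closed chromatin.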
